A study of Mus musculus with 16 samples.

Results

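The acute phase and innate defence genes Lcn2, Steap4, Lrg1, Hp, Fgg, Slpi and Saa3 were followed in mouse pancreatic islets exposed to IL-1β, butyrate or both. These 7 genes were taken by symbol from a table of 52636 genes, and all 7 passed the filter on low counts, which left 18587 genes. They were chosen by RNA-seq values of these libraries, taken here to be those of IL-1β against control, so that contrast is given as a description and without a test. Islets came from 12-week-old male mice, whose strain is C57BL/6JRj in the sample labels and C57BL/6NRj in the methods of the study. Batches of 500 islets, pooled from several mice, were kept for 10 days in medium with 2% human serum. The 4 conditions were no addition (control), 50 pg/mL recombinant mouse IL-1β, 0.2 mM sodium butyrate, and both agents at those concentrations. Each condition had 4 libraries from independent experiments, so a replicate is an experiment with pooled islets and not a mouse. The study asked how butyrate acts on the gene expression brought about by a long exposure to little IL-1β.

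The acute phase response is the change in plasma proteins that follows inflammation. The liver is its main source, while many epithelia make some of these proteins locally. IL-1β acting through NF-κB and IL-6 acting through STAT3, together with C/EBP factors, are its main inducers. Butyrate, a product of bacterial fermentation in the gut, inhibits histone deacetylases. Lcn2 encodes lipocalin 2, which binds bacterial siderophores and so withholds iron. Saa3 encodes a serum amyloid A protein made mostly outside the liver. Hp encodes haptoglobin, which binds free haemoglobin, and Fgg encodes the gamma chain of fibrinogen, the precursor of fibrin in clots. Lrg1 encodes leucine-rich alpha-2-glycoprotein 1, a plasma protein that modulates TGFβ signalling in the endothelium. Slpi encodes secretory leukocyte protease inhibitor, an inhibitor of neutrophil elastase with antimicrobial activity. Steap4 encodes a metalloreductase of cell membranes that reduces iron and copper, so it is not a secreted protein although it is grouped with them here.

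On the mouse genome GRCm38, Lcn2 (ENSMUSG00000026822) lies at chr2:32384633-32388252, Slpi (ENSMUSG00000017002) at chr2:164354070-164389095, Fgg (ENSMUSG00000033860) at chr3:83007724-83015049, Steap4 (ENSMUSG00000012428) at chr5:7960457-7982213, Saa3 (ENSMUSG00000040026) at chr7:46711998-46715700, Hp (ENSMUSG00000031722) at chr8:109575128-109579172 and Lrg1 (ENSMUSG00000037095) at chr17:56119678-56122001. Fgg and Steap4 are on the plus strand and the other 5 on the minus strand. Of the exon bases of Fgg, 5.49% overlap the lincRNA Gm30097 on the opposite strand, where reads cannot be told apart, since the strand setting of the counting is not given in the sources used here.

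Sequence before the transcription start was taken from RefSeq (GRCm38.p6), which matched 6 of the 7 genes (not Hp). The 250 bases before the start were searched on both strands, any overlap allowed, for the NF-κB consensus, the C/EBP motif TTGCNNAA and the STAT motif TTCNNNGAA. These were present in 3.90%, 9.56% and 7.02% of all 32851 mouse promoters of the same length. The 5 stretches that follow run from base 250 to base 61 before the start. They are those of the 4 genes with a match and of Lrg1, the gene with the largest change when butyrate was added to IL-1β. Capitals mark the matched letters.
Steap4: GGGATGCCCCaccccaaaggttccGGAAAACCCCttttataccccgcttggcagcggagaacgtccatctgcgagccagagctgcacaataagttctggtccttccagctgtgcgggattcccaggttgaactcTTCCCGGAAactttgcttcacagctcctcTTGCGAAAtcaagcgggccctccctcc
Lcn2: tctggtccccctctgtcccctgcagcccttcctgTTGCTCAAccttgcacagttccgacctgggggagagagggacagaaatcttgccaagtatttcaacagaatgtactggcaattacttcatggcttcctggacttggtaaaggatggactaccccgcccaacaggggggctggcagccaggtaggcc
Slpi: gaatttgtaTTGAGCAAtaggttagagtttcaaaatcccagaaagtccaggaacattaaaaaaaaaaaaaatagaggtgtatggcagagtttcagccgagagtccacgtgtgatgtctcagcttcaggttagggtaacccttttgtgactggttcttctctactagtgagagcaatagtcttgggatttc
Saa3: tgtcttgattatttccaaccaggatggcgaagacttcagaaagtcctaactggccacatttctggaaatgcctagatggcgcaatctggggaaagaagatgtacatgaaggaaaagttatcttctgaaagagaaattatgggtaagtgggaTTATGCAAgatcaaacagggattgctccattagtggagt
Lrg1: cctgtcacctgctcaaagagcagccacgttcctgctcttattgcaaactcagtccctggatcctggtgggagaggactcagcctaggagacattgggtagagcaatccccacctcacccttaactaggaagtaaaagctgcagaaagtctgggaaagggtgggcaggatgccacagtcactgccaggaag
Their coordinates are chr5:7960222-7960411 (plus strand) for Steap4, chr2:32387800-32387989 (minus strand) for Lcn2, chr2:164356568-164356757 (minus strand) for Slpi, chr7:46715737-46715926 (minus strand) for Saa3 and chr17:56122007-56122196 (minus strand) for Lrg1. Steap4 held 2 NF-κB matches that began at bases 250 and 226, a STAT match from base 116 and a C/EBP match from base 87 before the start. Lcn2, Slpi and Saa3 each held 1 C/EBP match, from bases 216, 241 and 99. Fgg and Lrg1 held none of these letters in the window, from which nothing follows about the factors. Of the stretch of Lcn2, 139 bases lie in an exon of another Lcn2 transcript in GENCODE M21, and of that of Steap4, 83 bases lie in an exon of the lincRNA Gm30835 on the minus strand.

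The libraries held 18635943 to 25955943 counts (median 22184715). The summed level of 9 beta cell markers was 137319 to 261908 CPM (counts scaled to library size by the TMM method), so the tissue carried the defining genes of islets. A gene counted as called when its FDR, the Benjamini-Hochberg adjusted p of edgeR's quasi-likelihood test over all 18587 genes, was under 0.01. These are bulk samples, in which fewer cells of a type and less RNA per cell cannot be told apart. Replicate 1 of the butyrate condition was the highest of its 4 libraries for 5 of the 7 genes. It was at 2.72 times the mean of the other 3 for Saa3 to 26.1 times for Fgg. For Hp (0.508 times) and Slpi (1.47 times) it was not the highest. Over the 652 genes raised 2-fold or more by IL-1β, that library differed from the other butyrate libraries by a median log2 value of 0.09. Over all genes tested the median was 0.02. A median over genes raised from 2-fold up says little on the genes raised most, and the cause was not tested. Results that rest on it are given with and without it.

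All 7 genes were close to silent in control islets. Summed over the 4 control libraries there were 69 reads of Lcn2, 31 of Saa3, 20 of Steap4, 8 of Hp, 8 of Slpi, 5 of Lrg1 and 3 of Fgg. Lcn2 was at 0.373, 0.292, 0.717 and 1.67 CPM in control replicates 1 to 4 and at 808, 1645, 1241 and 1762 CPM with IL-1β. With IL-1β it took 0.0799% to 0.188% of all counts in a library and was the most abundant of the 7 genes. Steap4 was at 0.327, 0.0417, 0.143 and 0.385 CPM in control and at 419, 424, 383 and 421 CPM with IL-1β. Its IL-1β libraries had a coefficient of variation of 4.62%, against 19.6% for Saa3, 20.6% for Fgg, 31.7% for Lcn2, 35.3% for Hp, 40.2% for Slpi and 44.4% for Lrg1.

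Saa3 was at 0.187, 0.292, 0.478 and 0.428 CPM in control and at 73.9, 75.6, 48.2 and 61.9 CPM with IL-1β. Lrg1 was at 0, 0.0417, 0.0956 and 0.0856 CPM in control and at 4.29, 12.6, 7.98 and 13.4 CPM with IL-1β. Neither gene overlapped between these conditions. Hp was at 0.187, 0.0417, 0 and 0.128 CPM in control and at 3.62, 6.18, 6.63 and 9.13 CPM with IL-1β. Slpi was at 0.0933, 0.0417, 0.0956 and 0.128 CPM in control and at 2.79, 7.40, 4.15 and 6.24 CPM with IL-1β. Fgg was at 0, 0.0417, 0.0956 and 0 CPM in control and at 3.46, 3.89, 2.80 and 2.45 CPM with IL-1β. For all 7 genes every IL-1β library was above every control library, as it was for 14.1% of all genes tested, and nothing is read from this since the genes were chosen by that contrast.

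As ratios of summed counts corrected for library size, with 95% intervals that cover counting error only, IL-1β against control was 1851 for Steap4 (1199 to 3031), 1828 for Lcn2 (1445 to 2350.1), 187 for Saa3 (132 to 276), 179 for Lrg1 (76.4 to 553), 92.6 for Fgg (31.3 to 452), 74.6 for Hp (37.6 to 174) and 59.2 for Slpi (29.8 to 138). Relative to the ratio, the intervals of Fgg and Lrg1, the genes with the fewest control reads, were the widest. By fitted log2 fold change the genes took ranks 2 (Steap4), 3 (Lcn2), 11 (Saa3), 12 (Lrg1), 22 (Fgg), 23 (Hp) and 26 (Slpi) of 18587. In that contrast 11.2% of all genes tested were called higher and 6.59% lower, which is background and no result on these genes.

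**Figure D1:**
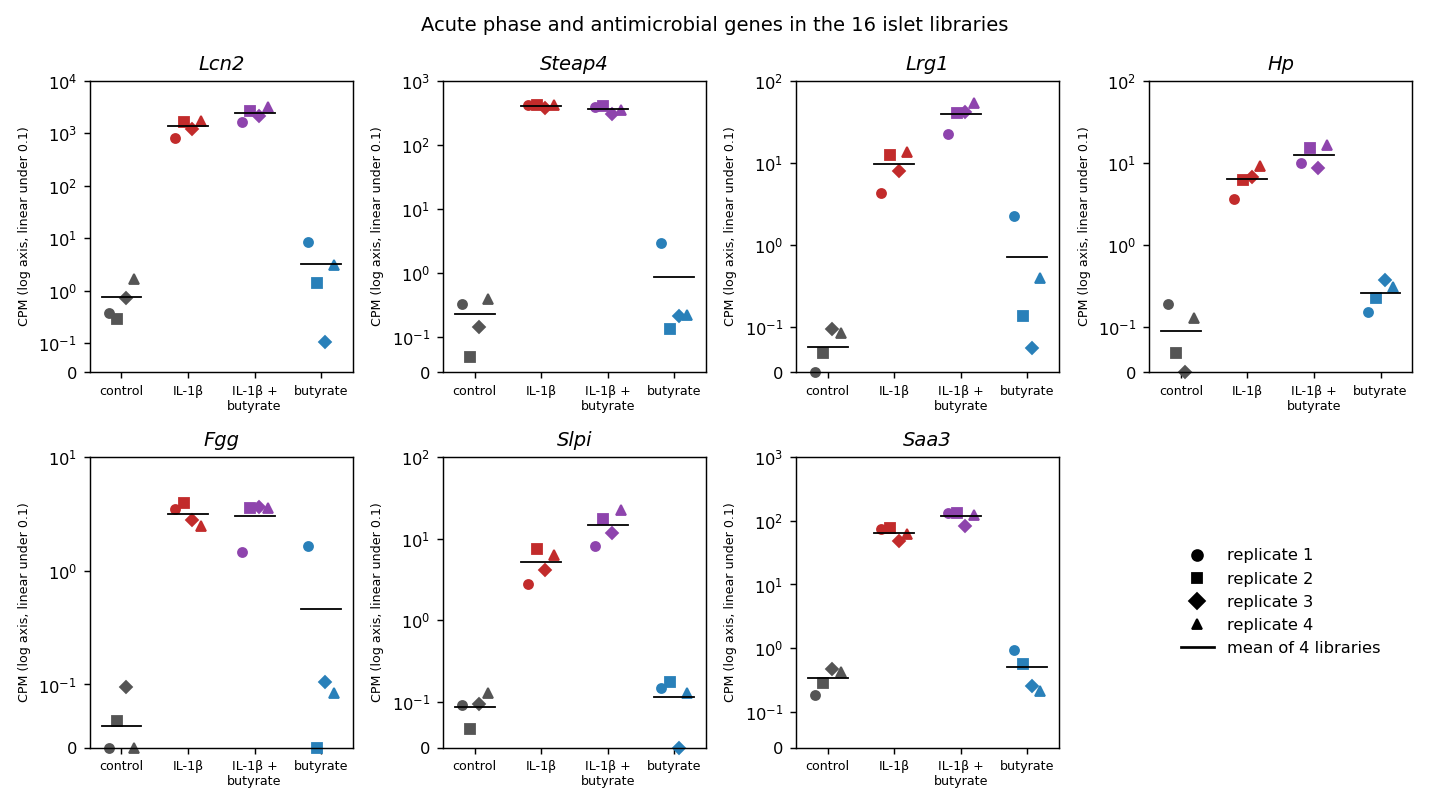
CPM (y axis, logarithmic, linear under 0.1) of the 7 genes in each of the 16 libraries, by condition (x axis), with a symbol per replicate and a line at the mean of 4 libraries. All 7 genes were near 0 in control islets and far higher in both IL-1β conditions, and replicate 1 of the butyrate condition (blue circle) lay above the other 3 for Lcn2, Steap4, Lrg1, Fgg and Saa3.

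Per kilobase of exon, the scale on which genes can be compared, the order of levels with IL-1β was Lcn2 (520.0 ± 165 CPM per kb, SD, n = 4), Steap4 (131 ± 6.02), Saa3 (24.9 ± 4.87), Lrg1 (6.79 ± 3.02), Slpi (4.36 ± 1.75), Hp (3.98 ± 1.41) and Fgg (1.51 ± 0.310). The libraries of Lrg1 and Slpi overlapped, as did those of Slpi and Hp, while the other neighbours in this order were separate. With both agents the order was the same, with Lcn2 (926 ± 256 CPM per kb, SD, n = 4), Steap4 (115 ± 15.1), Saa3 (44.7 ± 8.54), Lrg1 (28.5 ± 9.30), Slpi (12.6 ± 5.21), Hp (7.80 ± 2.38) and Fgg (1.45 ± 0.501). There the ranges of Saa3 and Lrg1 met as well. In control and in butyrate islets the ranges of all neighbours in the order of means overlapped. Within each of the 4 butyrate libraries Lcn2 was above Lrg1 and Steap4 above Fgg, while no control neighbours kept their order in all 4 libraries.

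Butyrate did not lower any of the 7 genes past the threshold in the presence of IL-1β. With both agents 3 genes were called higher than with IL-1β alone (Lrg1, Slpi and Saa3) and 0 lower, where 8.41% of all genes tested were called higher and 11.1% lower. The IL-1β libraries belong to the contrast behind the choice of genes, so this comparison is not independent of it. The median log2 fold change of the 7 genes was 0.84, against 0.01 over all genes tested.

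Lrg1 showed the largest difference. With both agents it was at 22.8, 41.1, 41.7 and 54.7 CPM, and each of these libraries was above the highest IL-1β library, at 13.4 CPM. The log2 fold change was 2.03 ± 0.37 (SE, 95% interval 1.23 to 2.83, edgeR FDR = 0.00106), and the ratio within a replicate number was 3.27 to 5.32. Slpi was at 8.12, 17.4, 11.8 and 22.1 CPM, against 2.79 to 7.40 CPM with IL-1β, again without overlap. Its log2 fold change was 1.50 ± 0.31 (0.83 to 2.18, edgeR FDR = 0.00260), with ratios of 2.35 to 3.54. Saa3 was at 131, 129.6, 83.6 and 121 CPM, against 48.2 to 75.6 CPM with IL-1β. Its change was smaller and even between replicate numbers, with a log2 fold change of 0.84 ± 0.16 (0.49 to 1.19, edgeR FDR = 0.00149) and ratios of 1.72 to 1.96. Of all genes tested, 12.3% had every library with both agents above every IL-1β library, as these 3 had.

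Hp and Lcn2 had values of a size like that of Saa3 without passing the threshold. Hp was at 10.0, 15.2, 8.54 and 16.3 CPM with both agents, and its lowest library was below the highest IL-1β library, at 9.13 CPM. The log2 fold change was 0.94 ± 0.25 (0.40 to 1.48, edgeR FDR = 0.0111). Replicate numbers paired these conditions by the correlation of their deviations, and with a block for them the value was 0.97 with an edgeR FDR of 7.46e-07, which passed. Lcn2 was at 1661, 2641, 2178 and 3238 CPM with both agents, overlapping the IL-1β range of 808 to 1762 CPM. Its log2 fold change was 0.83 ± 0.34 (0.08 to 1.58, edgeR FDR = 0.0902, and 0.0303 with the block). In each of the 4 replicate numbers both genes were higher with butyrate, by 1.61 to 2.06 times for Lcn2 and 1.29 to 2.77 times for Hp. In both IL-1β conditions replicate 1 was the lowest library of Lcn2, Lrg1 and Slpi, and replicate 4 the highest of Lcn2, Lrg1 and Hp.

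Steap4 and Fgg did not pass the test, and their values were near or below those with IL-1β alone. Steap4 was at 392, 408, 302 and 349.8 CPM with both agents, which was 0.788 to 0.963 times its IL-1β partner in each of 4 replicate numbers. The log2 fold change was -0.18 ± 0.19 (-0.59 to 0.23, edgeR FDR = 0.514). Fgg was at 1.46, 3.56, 3.59 and 3.52 CPM, above its IL-1β partner in 2 of 4 replicate numbers, with a log2 fold change of -0.05 ± 0.49 (-1.12 to 1.02, edgeR FDR = 0.951). The interval of Fgg holds a 2-fold change either way and that of Steap4 does not. When only the libraries of these conditions entered the fit, 0 of the 7 genes passed (edgeR FDR 0.0120 for Lrg1, 0.0204 for Saa3 and 0.0411 for Slpi). By DESeq2 the FDR of Lrg1 was 0.0421, and without IL-1β replicate 3 the call of Slpi was lost by a narrow margin. With the replicate block these 3 genes kept their calls (edgeR FDR 0.000192 for Lrg1, 9.30e-15 for Saa3 and 3.64e-15 for Slpi).

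**Figure D2:**
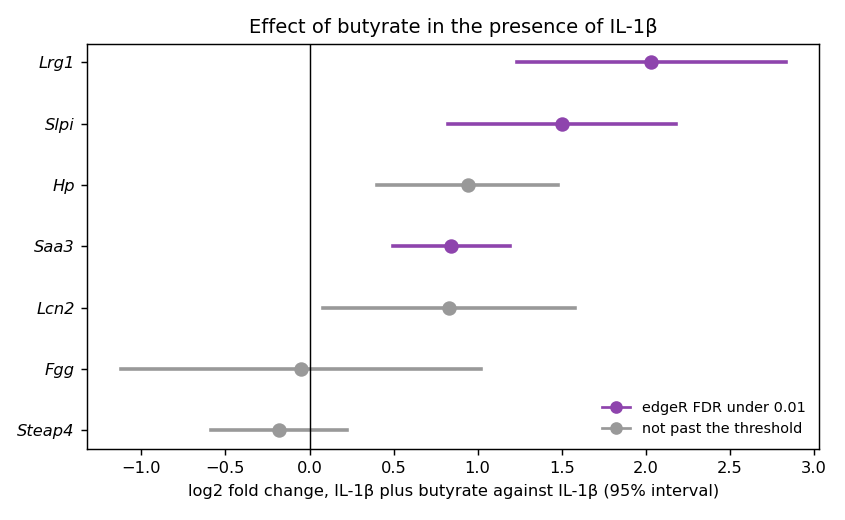
Log2 fold change (x axis) of each of the 7 genes (y axis) with both agents against IL-1β alone, as points with 95% intervals from edgeR, and calls at an FDR under 0.01 in purple. Lrg1 at 2.03, Slpi at 1.50 and Saa3 at 0.84 were called, and the intervals of Steap4 and Fgg included 0.

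Butyrate alone left the genes at few reads in most libraries. Against control 0 of the 7 genes were called by edgeR, with 1 (Fgg) at an unadjusted p under 0.05, where 8.53% of all genes tested were called higher and 11.4% lower (19.9% in all). Lcn2 was at 8.34, 1.38, 0.105 and 3.14 CPM, from 166, 31, 2 and 73 reads. Steap4 was at 2.86, 0.133, 0.209 and 0.215 CPM, from 57, 3, 4 and 5 reads. Lrg1 was at 2.26, 0.133, 0.0523 and 0.387 CPM, from 45, 3, 1 and 9 reads. In each of these replicate 1 was the highest. Fgg had 33, 0, 2 and 2 reads and Saa3 had 19, 13, 5 and 5. Hp had 3, 5, 7 and 7 reads and Slpi had 3, 4, 0 and 3, so these genes did not stand out in replicate 1. For 0 of the 7 genes did every butyrate library lie above every control library, as was so for 13.3% of all genes tested.

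The fitted log2 fold changes of butyrate against control were 3.51 for Fgg (edgeR FDR = 0.120), 3.49 for Lrg1 (0.226), 2.06 for Lcn2 (0.183), 1.85 for Steap4 (0.243), 1.48 for Hp (0.383), 0.51 for Saa3 (0.734) and 0.38 for Slpi (0.902). DESeq2 called Lrg1, at 3.66 (FDR = 0.00325). Without replicate 1 of butyrate the edgeR values were 0.78 for Fgg, 1.74 for Lrg1, 1.07 for Lcn2, -0.26 for Steap4, 1.65 for Hp, 0.03 for Saa3 and 0.26 for Slpi. The direction of Steap4 thus rested on that library. With so few reads the fitted values depend on the prior count. Standard errors ran from 0.91 (Saa3) to 2.00 (Lrg1), so the lack of a call by edgeR does not show that butyrate alone changed nothing. The part of depth and of spread between libraries in this was not tested.

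The response to IL-1β in the presence of butyrate was measured in libraries that the choice contrast does not contain. However, 6 of the 7 genes (all but Lcn2) passed the filter on low counts only through libraries with IL-1β, so they had to be higher there and the counts that follow support nothing. With both agents against butyrate alone, 7 of 7 genes were called higher, where 9.92% of all genes tested were called higher and 4.86% lower (14.8% in all). For 6 of the 7 the libraries did not overlap, as for 14.2% of all genes tested. Fgg was the exception, since 1.46 CPM in replicate 1 with both agents was below 1.66 CPM in replicate 1 with butyrate. The log2 fold changes were 9.56 ± 0.55 for Lcn2 (edgeR FDR = 3.06e-08), 8.79 ± 0.35 for Steap4 (5.31e-10), 7.86 ± 0.31 for Saa3 (5.12e-10), 6.90 ± 0.60 for Slpi (1.36e-06), 5.85 ± 0.57 for Lrg1 (5.35e-06), 5.56 ± 0.43 for Hp (2.41e-07) and 2.76 ± 0.67 for Fgg (0.00917). Fgg was near the threshold and lost its call under 18 of 23 alternatives. Without replicate 1 of butyrate its value was 5.49 (edgeR FDR = 4.40e-08), that of Lrg1 7.60, that of Steap4 10.90 and that of Lcn2 10.54.

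**Figure D3:**
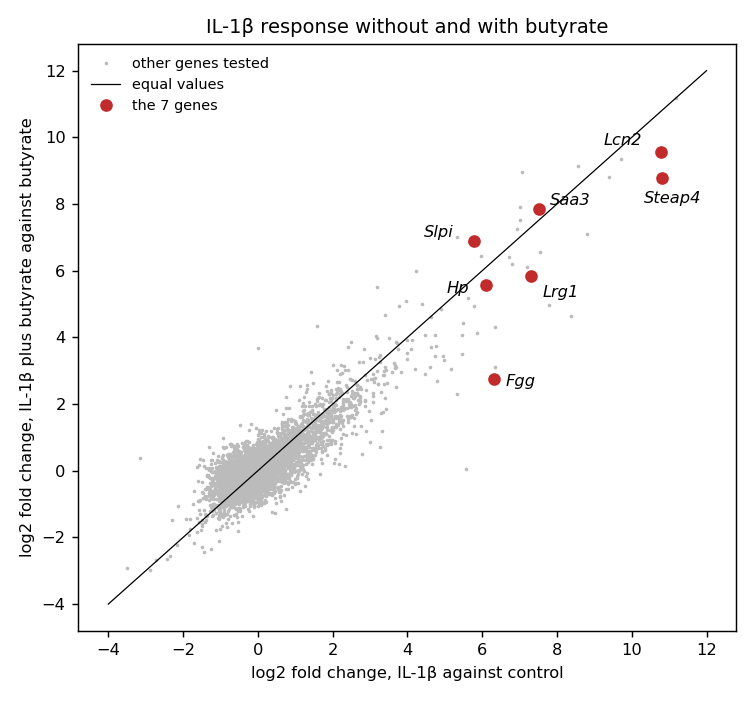
Log2 fold change of IL-1β against control (x axis) and of both agents against butyrate (y axis) for the 7 genes (red) and the other genes of 18587 tested (grey), with a line of equal values. The axes share no libraries. Fgg, at 6.33 and 2.76, lay farthest below the line among the 7 genes, and without replicate 1 of butyrate its y value was 5.49.

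Against control islets, both agents together gave log2 fold changes of 6.27 (Fgg) to 11.61 (Lcn2), and 7 of 7 genes were called higher, where 15.8% of all genes tested were called higher and 14.8% lower. For all 7 the libraries did not overlap, as for 19.3% of all genes tested. This comparison shares its control libraries with the contrast behind the choice, and the limit of the filter holds here too, so nothing is read from these counts. The difference between the effect of butyrate with and without IL-1β was called for 0 of the 7 genes by edgeR. DESeq2 called 0 of those to which it gave an adjusted p, and 0 of the 7 had an unadjusted p under 0.05 in edgeR. Of all genes tested it was called for 0.0968% (0.043% higher and 0.0538% lower). The estimates ran from -3.56 ± 1.68 for Fgg to 1.12 ± 1.90 for Slpi, with an edgeR FDR of 0.691 to 0.986, and without replicate 1 of butyrate that of Fgg was -0.84. With standard errors of 0.97 (Saa3) to 2.28 (Lrg1) and few reads without IL-1β, the lack of a call does not show that the effects were equal.

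Other acute phase plasma proteins were taken from a list of 28 genes, of which 10 passed the filter on low counts. With both agents against IL-1β, 4 of the 10 were called higher and 0 lower, where 8.41% and 11.1% of all genes tested were, with a median log2 fold change of 0.39. They were Saa2 (3.11 ± 0.46, edgeR FDR = 8.51e-06), Orm1 (2.61 ± 0.44, FDR = 0.000489), Saa1 (1.90 ± 0.40, FDR = 0.00306) and Lbp (1.08 ± 0.22, FDR = 0.000419). Saa1 and Saa2 encode serum amyloid A proteins of the liver, Orm1 encodes an orosomucoid and Lbp the protein that carries bacterial lipopolysaccharide to CD14. All 4 were rare. The filter on low counts asked for 0.451 CPM in 4 libraries. Saa2 was at 0.289 CPM or less in every library without both agents. Saa1, at 0.207 CPM in IL-1β replicate 1, reached the filter only with the libraries of both agents. Saa1 and Saa2 thus entered the test through the condition where they were high, so nothing is read from the count of 4. Saa1 had 0 reads in all control and butyrate libraries, 4, 24, 9 and 29 reads with IL-1β and 46, 71, 51 and 86 with both agents. Orm1 had 0 reads in the control libraries, 10, 13, 9 and 23 with IL-1β and 76, 61, 60 and 151 with both agents. For both genes every library with both agents was above every IL-1β library, as for 12.3% of all genes tested. Nothing is read from this for Saa1, given the limit of the filter. Saa1 and Saa2 are near-identical copies, and Orm1 has such copies too, so the split of reads between them is uncertain. Saa1 lost its call without IL-1β replicate 3 or without replicate 2 of both agents, at an edgeR FDR of up to 0.0125.

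Cp, the most abundant of the 10 per length, encodes the copper-carrying ferroxidase ceruloplasmin and was at 1.49 ± 0.438 CPM in control, 158 ± 25.5 with IL-1β and 169.9 ± 37.0 with both agents (SD, n = 4). Its log2 fold change for butyrate in islets with IL-1β was 0.11 ± 0.15 (edgeR FDR = 0.637). The partner chains of Fgg did not pass the test either, at -0.32 ± 0.28 for Fga (edgeR FDR = 0.421) and 0.30 ± 0.26 for Fgb (edgeR FDR = 0.426). Fga and Fgb lie next to Fgg on chromosome 3. In replicate 1 of butyrate Fga had 18 reads and Fgb 43, against 3 to 7 and 11 to 17 in the other 3, so all 3 fibrinogen chains were highest there. Fga was the 1 gene of the 10 called with butyrate against control (2.70 ± 0.75, edgeR FDR = 0.00815), and the call was kept under 13 of 22 alternatives. It was lost without that library and with the replicate block (edgeR FDR = 0.0130).

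Of a list of 24 other antimicrobial and defence proteins, 12 were tested. With butyrate added to IL-1β, 2 of the 12 were called higher and 2 lower, where 8.41% and 11.1% of all genes tested were. These counts, made without the replicate block, do not set the list apart. The median log2 fold change was -0.53, against 0.01 over all genes tested. The genes called higher were Wfdc2 (2.04 ± 0.29, edgeR FDR = 5.81e-06), which like Slpi encodes a protein with whey acidic protein domains, and Defb1 (1.00 ± 0.12, FDR = 2.41e-05), an epithelial beta-defensin. Defb1 was also called with butyrate alone, at 27.0 ± 4.24 CPM in control and 52.3 ± 5.92 with butyrate. The genes called lower were Slc11a1 (-1.06 ± 0.23, FDR = 0.00110), a phagosomal metal transporter, and Ltf (-1.09 ± 0.31, FDR = 0.00880), which encodes the iron-binding protein lactoferrin and kept its call under 8 of 23 alternatives. Lyz2, the lysozyme of macrophages, was at 48.1 ± 10.4 CPM with IL-1β and 24.3 ± 8.29 with both agents (edgeR FDR = 0.0119). With the replicate block 2 genes were called higher and 5 lower, Lyz2 included (edgeR FDR = 0.000164). The share of all genes called with the block is not given here, so nothing is read from that count.

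**Figure D4:**
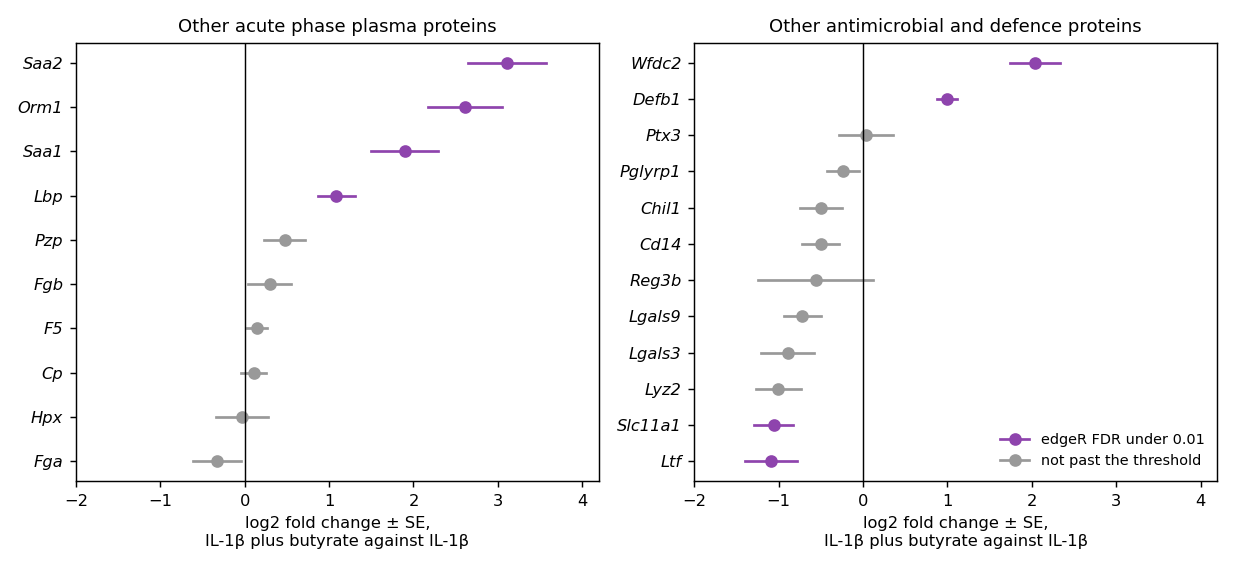
Log2 fold change ± SE (x axis) with both agents against IL-1β alone for the 10 other acute phase genes tested (left) and the 12 other antimicrobial and defence genes tested (right), with calls at an edgeR FDR under 0.01 in purple. The 4 acute phase genes called were all higher, while 2 of the defence genes called were higher and 2 lower. Saa1 and Saa2 passed the filter on low counts only with the libraries of both agents.

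Markers of other cell types moved beside these genes. The summed level of 10 macrophage markers was 118 to 136 CPM in control, 152 to 176 with IL-1β, 89.0 to 111 with both agents and 77.9 to 101 with butyrate. The sum fell below control with both agents, while most of its genes did not. With IL-1β against control 9 of the 10 were called higher and C1qa lower (median log2 fold change 2.32), where 11.2% and 6.59% of all genes tested were. With both agents against control 7 were called higher and C1qa lower (median 1.58), where 15.8% and 14.8% were. With both agents 5 of the 10 were called lower than with IL-1β and 0 higher, where 11.1% and 8.41% were. This was the direction of Slc11a1 and Ltf and the opposite of Lrg1, Slpi and Saa3. The summed level of 11 neutrophil markers, Ltf included, was 1.03 to 1.53 CPM in control, 2.02 to 5.38 with IL-1β, 2.16 to 3.42 with both agents and 1.52 to 2.21 with butyrate, with Ly6g at 0 in every library. That of 9 duct markers was 372 to 399 CPM in control, 543 to 634 with IL-1β, 553 to 847 with both agents and 357 to 400.4 with butyrate. Within it Spp1 was at 158 ± 45.8 CPM with IL-1β and 348 ± 113 with both agents (edgeR FDR = 0.0143), and the keratin gene Krt7 was called lower, from 394 ± 28.1 to 338 ± 17.5 CPM. The summed level of 8 hepatocyte markers was 1022 to 1293 CPM in control, 627 to 812 with IL-1β, 372 to 500.4 with both agents and 552 to 760.0 with butyrate, with Ttr as the bulk of it and with Cyp2e1 and Serpina1c at 0 in every library. Islet cell markers moved as well. The summed level of 4 delta cell markers was 1696 to 1995 CPM in control, 1747 to 2222 with IL-1β, 2627 to 3190.3 with both agents and 2395 to 2775 with butyrate, and Sst was called higher with both agents than with IL-1β, at 2640.5 ± 240.2 against 1735 ± 218 CPM. Sst was the only delta marker called there. Of 5 alpha cell markers, Gcg, the glucagon gene, was called higher (0.25, edgeR FDR = 0.00869). Irx2 and Ttr were called lower, and the median log2 fold change of the 5 was -0.31. Of the 9 beta cell markers Ins1 (-0.40, edgeR FDR = 6.28e-05) and Mafa (-0.77, FDR = 0.00620) were called lower. The other 7 were not called, and the median of the 9 was -0.11. The summed level of 9 acinar markers was 18.7 to 30.3 CPM in control, 8.81 to 16.9 with both agents and 13.7 to 19.8 with butyrate. In every IL-1β library it was above those with both agents, at up to 27.3 CPM. Those of 7 fibroblast and 6 endothelial markers overlapped between the IL-1β conditions, at up to 20.6 and 17.4 CPM. The part of these cells in the results was not tested.

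Of 8 genes for plasma proteins that fall in the acute phase, 5 were tested. With IL-1β against control 2 were called higher (Trf and Apoa2) and 1 lower (Ttr), where 11.2% and 6.59% of all genes tested were. The median log2 fold change of the 5 there was 0.33, so the list as a whole did not fall with IL-1β. With butyrate added to IL-1β, 3 were called lower and 0 higher (median log2 fold change -0.72), where 11.1% of all genes tested were called lower. These were Alb (-1.64 ± 0.30, edgeR FDR = 0.000109), Apoa2 (-0.73 ± 0.15, FDR = 0.000624) and Ttr (-0.72 ± 0.12, FDR = 0.000480), and all 3 were also called lower with butyrate against control. Ttr, the transthyretin gene, which islet cells express strongly, was at 1129 ± 117 CPM in control, 683 ± 79.3 with IL-1β and 415 ± 50.9 with both agents. Rbp4, the retinol carrier, was at 146 ± 11.1 CPM with IL-1β and 146 ± 18.5 with both agents (edgeR FDR = 0.988).

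Among the 3 other STEAP metalloreductases, Steap1 was at 4.50 ± 1.07 CPM in control and 7.64 ± 1.42 with IL-1β, a log2 fold change of 0.78 against 10.81 for Steap4. With both agents against IL-1β 0 of the 3 were called, with log2 fold changes of 0.15 (Steap2) to 0.30 (Steap3). Steap2 had an edgeR FDR of 0.0175, and of 0.00461 with the replicate block. Of 10 receptors and binding partners of the proteins 7 were tested, and 2 were called higher, where 8.41% of all genes tested were. Mmp9, the protease that forms a complex with lipocalin 2, had a log2 fold change of 1.69 ± 0.36 (edgeR FDR = 0.000780). It was at 2.03 ± 0.724 CPM with both agents and lower with IL-1β alone, so few reads enter this call. Neither IL-1β nor butyrate against control gave a call of Mmp9. Slc22a17, a receptor of lipocalin 2, had 0.21 ± 0.05 (edgeR FDR = 0.00438), and its call was lost without any 1 of IL-1β replicates 2 and 3 or replicates 3 and 4 of both agents (FDR of up to 0.0536).

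Of 23 genes of the IL-1 and IL-6 pathways that induce acute phase genes, 22 were tested. With IL-1β against control 14 were called higher and 3 lower, where 11.2% and 6.59% of all genes tested were. Cebpd, a C/EBP factor of the acute phase, was at 3.05 ± 0.322 CPM in control and 75.6 ± 9.55 with IL-1β. With butyrate added to IL-1β 3 of the 22 were called higher and 3 lower, where 8.41% and 11.1% of all genes tested were, and the median log2 fold change was -0.10. The genes called higher were Il1rap, the accessory chain of the IL-1 receptor (0.48 ± 0.10, edgeR FDR = 0.000400), Socs3, a feedback inhibitor of STAT3 signalling (0.36 ± 0.07, FDR = 0.000148), and Cebpb, a C/EBP factor (0.31 ± 0.06, FDR = 0.000333). Cebpd was at 106 ± 9.26 CPM with both agents (0.50 ± 0.13, edgeR FDR = 0.0109, and 0.00121 with the replicate block). The genes called lower were Relb (-0.54 ± 0.08, edgeR FDR = 1.19e-05) and Nfkb2 (-0.53 ± 0.08, FDR = 9.31e-05), which encode the subunits of non-canonical NF-κB, and the kinase gene Irak1 (-0.47 ± 0.05, FDR = 3.01e-08). With the block 5 were called higher and 7 lower. Cebpb is named here after its values were seen.

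The genes next to the members on the chromosome were compared in the same way. The 4 nearest genes tested around Lcn2 had log2 fold changes of -0.17 to 0.21 with IL-1β and of -0.11 to 0.13 for butyrate in islets with IL-1β, with 0 called. Beside Lrg1, Sema6b lies 1084 bases away and was at 17.4 ± 0.997 CPM in control, 14.9 ± 1.28 with IL-1β, 25.5 ± 1.00 with both agents and 25.2 ± 1.01 with butyrate. It was called with both agents against IL-1β (edgeR FDR = 8.30e-10) and not with IL-1β against control. Plin5, on the other side of Lrg1, had a log2 fold change of 1.57 (edgeR FDR = 0.00700), at 0.225 ± 0.164 CPM with IL-1β and 0.666 ± 0.144 with both agents. Its mean was under the 0.451 CPM of the filter in every condition but both agents, so nothing is read from this call. Beside Slpi, Sdc4 was called higher with IL-1β and again with both agents against IL-1β, at 26.7 ± 3.22 in control, 45.2 ± 3.70 with IL-1β and 68.8 ± 7.31 CPM with both agents. Of the neighbours of Steap4, Sri (0.48, edgeR FDR = 5.97e-09) and Adam22 (0.44, edgeR FDR = 9.80e-08), 63865 and 90139 bases away, were called higher with IL-1β against control and not with both agents against IL-1β. Of those of Fgg, Fga and Fgb were called higher and Gucy1a1 lower (-0.75) with IL-1β. Of those of Saa3, Saa1 was called higher with IL-1β, and Saa1 and Saa2 with both agents against IL-1β, with the limit of the filter given above. Of the 4 neighbours tested of Hp, 0 were called in either comparison. Over all genes tested, 11.2% were called higher and 6.59% lower with IL-1β against control. With both agents against IL-1β these shares were 8.41% and 11.1%.

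By Pearson's r of log2 CPM over the 16 libraries, among 12687 other genes, the profiles most like that of Lcn2 were those of Il1f6 (0.987), Jak3 (0.984) and Serpina3f (0.983). For Steap4 they were Serpina3f (0.993), Serpina3i (0.992) and Gbp6 (0.991), and for Saa3 Serpina3f (0.993), Cebpd (0.993) and Rgs4 (0.993). For Lrg1 they were Spp1 (0.982), Jak3 (0.967) and Slc6a8 (0.963). For Hp they were Pros1 (0.979), Lacc1 (0.976) and Trnp1 (0.975), for Slpi Csf1 (0.977), Pigr (0.973) and Chgb (0.972) and for Fgg Slc6a14 (0.966), Fgb (0.946) and Rgs19 (0.946). All 16 libraries enter each r, and they fall into those with and without IL-1β. Spp1, which encodes osteopontin, was at 11.9 ± 2.72 CPM in control, 27.7 ± 12.0 with butyrate, 158 ± 45.8 with IL-1β and 348 ± 113 with both agents. The means of Lrg1 had this order of conditions, as did those of Lcn2, Hp, Slpi and Saa3. Spp1 was picked by its r with Lrg1, so nothing is read from the shared order.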

How the data were processed

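RNA from 16 islet samples was sequenced on an Illumina HiSeq (single-end reads, NEBNext Ultra II libraries), and the authors deposited 1 table of raw read counts per Ensembl gene, without normalization. Per the submitters' processing notes the tools were bcl2fastq 2.19.1, FastQC 0.11.7, MultiQC 1.7 and STAR 2.5.3a with the genome mm10/GRCm38.p5. The counting program, annotation release and strand setting are not given in the sources used here. Gene symbols came from GENCODE M21, which held 52489 of 52636 identifiers, and 10560 genes had no count. The table held 0 columns of other samples.

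In R 4.3.3, genes were filtered with filterByExpr of edgeR 4.0.16 (with limma 3.58.1), scaled by TMM and fitted with robust quasi-likelihood models over all 16 libraries with condition as the term. Standard errors were the absolute log2 fold change divided by the square root of F. DESeq2 1.42.0, other scalings, no filter, an FDR threshold of 0.05, the replicate block, only the conditions compared and leaving out each library were the alternatives. The tests were tested on simulated data. Similar profiles were sought by Pearson's r of log2 CPM (prior count 0.5) among genes with an average log2 CPM of at least 1. The genes named from other lists were the 4 with the highest level per length and the 4 with the largest called change in a comparison. The members and lists were chosen with earlier results of these data known.

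Replicates differed by more than sampling noise, with a chi-square per gene of 1.72 (control 3 and 4) to 13.5 (IL-1β 2 and 4) over genes with at least 20 counts. The p-values measure the spread between experiments with pooled islets. Same-numbered libraries deviated together between IL-1β with and without butyrate (r of 0.238 to 0.422 over 12693 genes), between control and IL-1β (0.269 to 0.475), between control and butyrate (0.109 to 0.320) and between control and both agents (0.214 to 0.450), all above 0.1, but not in every pair of the other 2 contrasts. The numbers come from the sample titles. Reads carried no molecular identifiers, so counting intervals cover counting error only.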

Additional observations from a re-analysis of the deposited data

Results flagged for a closer look

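The 7 genes in the 4 conditions gave 28 groups of 4 libraries. In 5 of them 1 library lay far from the other 3 by Dixon's ratio at the 95% level. That level holds for normal values, which CPM of few reads need not follow, and the genes share their libraries. The 5 are therefore not set against a chance rate. Replicate 1 of the butyrate condition was the high library in 3 of these, with Steap4 at 2.86 CPM (group median 0.212), Lrg1 at 2.26 CPM (0.260) and Fgg at 1.66 CPM (0.0953). Replicate 1 with both agents was the low library for Fgg, at 1.46 CPM against a group median of 3.54. Replicate 3 with IL-1β was the low library for Steap4, at 383 CPM against a median of 420, a small gap in a group with little spread. The cause of these values was not tested.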

How the results depend on the processing

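With both agents against IL-1β, the values of the 7 genes kept their direction and their side of the threshold in 149 of 160 settings. The members called were 3, and 0 when only the libraries compared were fitted, and 2 to 4 when 1 library was left out. Fgg changed sign in that comparison, at 0.06 without IL-1β replicate 2 and 0.17 without replicate 1 of both agents (range -0.18 to 0.17 over the libraries left out). The genes called over all genes tested were 3629, and 5595 at an FDR under 0.05. Against butyrate, 142 of 160 settings kept the call and all 18 that lost it were of Fgg, which left 6 to 7 members called. Against control, all 160 settings kept it. For butyrate against control DESeq2 called 1 member (Lrg1) and edgeR 0 whichever library was left out, and Steap4 changed sign, at -0.26 without butyrate replicate 1 (range -0.26 to 2.26). The difference of the butyrate effects was called for 18 genes, and for 45 by DESeq2, 95 without the filter, 39 at an FDR under 0.05 and 11 to 25 with 1 library left out (11 without butyrate replicate 1). Without that library it changed sign for Steap4, at 0.082 (range -2.44 to 0.082), and Lrg1, at 0.29 (range -1.82 to 0.29). The replicate block gave 132 genes there. In contrasts where the pairing held, the block changed no other call of the 7 genes than that of Hp, and in both agents against butyrate, where it did not hold, Fgg had an edgeR FDR of 0.0204 with the block. IL-1β against control moved by more than the replicate spread only for Fgg without control replicate 3, at 7.28. The cause of these changes was not tested. DESeq2 gave no adjusted p for some of the 7 genes. The few reads without IL-1β limit every value that rests on control or butyrate libraries.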
